A study of Mus musculus with 67 samples.

Results

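The elements described here are the 1410 of 111638 accessible regions whose mean accessibility over days 5 and 6 was highest in pMN neural progenitors (NPs). They were chosen on these measurements: the mean in pMN was at least 0.6 above that of each of p0-1, p2 and p3, and at least 7, on the VST scale. VST is the variance-stabilizing transformation of read counts per element that the authors deposited, on which 1 unit approaches a log2 unit for well-covered elements and understates the change of poorly covered ones. Accessibility was measured by CaTS-ATAC, in which a transposase inserts sequencing adapters into the open chromatin of fixed cells, which are then stained for intracellular transcription factors and sorted. The cells were derived from HM1 mouse embryonic stem cells, a single line, so the replicates are separate differentiations and not separate animals. All NPs had received 100 nM retinoic acid from day 3, together with the Hedgehog pathway agonist SAG at 0 or 10 nM for p0-1, 10 or 100 nM for p2, and 100 or 500 nM for pMN and p3. The NMPs of day 3, the neuromesodermal progenitors from which the NPs arise, were collected before that treatment. Within SOX2-positive cells, p0-1 were sorted as PAX6-positive and NKX6.1-negative, p2 as positive for both, pMN as OLIG2-positive and NKX2.2-negative, and p3 as NKX2.2-positive and OLIG2-negative, so cells holding both OLIG2 and NKX2.2 were in neither of the last groups. On days 5 and 6 together there were 11 samples of p0-1, 12 of p2, 9 of pMN and 9 of p3, on day 4 there were 6, 6, 6 and 5, and there were 3 of NMPs.

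The ventral neural tube is divided into bands of progenitors by graded Hedgehog signalling, and each band makes its own class of neuron. The pMN domain, defined by the bHLH repressor OLIG2, makes motor neurons and later oligodendrocyte precursors, and lies between p2, a source of ventral interneurons, and p3, which is next to the floor plate. Distal elements such as enhancers become accessible to transposase where transcription factors displace nucleosomes, so accessibility marks where factors can act without naming the factor or the target gene. The gene given with each element is the nearest one by the deposited HOMER annotation, which is not evidence that the element acts on it.

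The sequences below are the central 300 bases, on the plus strand of mm10, of 7 of the members with the largest excess near genes of a list of pMN and motor neuron regulators. They are shown because the results return to these elements, and because they display the short motifs counted further on. Capitals mark 3 forms of the E-box bound by bHLH factors such as OLIG2 and the neurogenins (CAGATG, then the symmetric form CATATG, and also the symmetric form CAGCTG), the motif of SOX factors, ACAANG, and that of GLI factors, GACCACC, each read on both strands.
Olig2 element, 9.2 kb downstream, chr16:91234638-91234937: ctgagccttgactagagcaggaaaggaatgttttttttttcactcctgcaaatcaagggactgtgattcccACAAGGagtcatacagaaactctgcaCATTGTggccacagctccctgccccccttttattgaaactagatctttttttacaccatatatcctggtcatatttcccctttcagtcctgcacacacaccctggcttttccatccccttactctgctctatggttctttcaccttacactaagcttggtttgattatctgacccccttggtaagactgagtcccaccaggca
Olig2 element, 40.9 kb upstream, chr16:91184480-91184779: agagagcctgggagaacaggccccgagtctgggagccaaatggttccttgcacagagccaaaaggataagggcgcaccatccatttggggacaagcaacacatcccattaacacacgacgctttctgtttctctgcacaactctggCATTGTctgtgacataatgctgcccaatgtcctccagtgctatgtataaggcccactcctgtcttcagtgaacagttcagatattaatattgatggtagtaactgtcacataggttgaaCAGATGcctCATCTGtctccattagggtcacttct
Olig1 element, 28.1 kb downstream, chr16:91297742-91298041: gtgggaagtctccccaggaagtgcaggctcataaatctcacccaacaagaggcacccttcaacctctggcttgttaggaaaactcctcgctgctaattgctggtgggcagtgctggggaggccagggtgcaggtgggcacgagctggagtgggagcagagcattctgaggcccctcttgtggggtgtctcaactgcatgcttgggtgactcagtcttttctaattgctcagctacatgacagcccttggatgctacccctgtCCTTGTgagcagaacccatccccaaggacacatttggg
Mnx1 element, 6.7 kb upstream, chr5:29485019-29485318: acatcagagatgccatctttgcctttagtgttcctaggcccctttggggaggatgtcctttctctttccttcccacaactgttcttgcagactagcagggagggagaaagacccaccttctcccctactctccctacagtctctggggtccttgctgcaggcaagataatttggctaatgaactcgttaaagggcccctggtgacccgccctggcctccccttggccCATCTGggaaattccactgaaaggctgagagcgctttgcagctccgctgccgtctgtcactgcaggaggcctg
Lhx3 element, 32.8 kb downstream, chr2:26175297-26175596: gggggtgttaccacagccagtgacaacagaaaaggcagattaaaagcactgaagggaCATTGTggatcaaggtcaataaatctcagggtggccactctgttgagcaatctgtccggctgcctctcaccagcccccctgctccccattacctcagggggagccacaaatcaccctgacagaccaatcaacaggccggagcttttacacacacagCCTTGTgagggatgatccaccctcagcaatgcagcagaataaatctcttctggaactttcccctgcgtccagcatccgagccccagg
Lhx3 element, 29.0 kb downstream, chr2:26179073-26179372: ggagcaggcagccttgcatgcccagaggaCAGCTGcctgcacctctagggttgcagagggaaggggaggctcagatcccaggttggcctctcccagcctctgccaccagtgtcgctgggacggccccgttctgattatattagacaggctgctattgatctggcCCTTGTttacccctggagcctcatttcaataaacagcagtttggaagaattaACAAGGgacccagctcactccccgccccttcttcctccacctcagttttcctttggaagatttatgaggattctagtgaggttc
Slit3 element in intron 4, chr11:35318224-35318523: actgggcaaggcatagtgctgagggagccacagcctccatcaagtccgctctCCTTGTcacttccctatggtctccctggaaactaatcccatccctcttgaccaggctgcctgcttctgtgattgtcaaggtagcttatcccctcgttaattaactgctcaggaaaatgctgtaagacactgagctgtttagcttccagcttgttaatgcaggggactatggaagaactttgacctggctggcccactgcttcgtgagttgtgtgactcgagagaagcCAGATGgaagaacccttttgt
In these windows 2 copies of an E-box that can be read as CAGATG lie close together near one end of the Olig2 element 40.9 kb upstream. None of the 5 motifs except the SOX motif lies in the window of the Olig2 element 9.2 kb downstream. The same holds for the Olig1 element and for the Lhx3 element 32.8 kb downstream. The Olig2 element 9.2 kb downstream is 5915 bp wide, so the window covers a small part of it.

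Samples held 9298160 to 29985325 reads in elements (median 20254011), and the median over all elements stayed between 5.32 and 5.79 VST units in every sample. The sorting labels were compared with the elements nearest the start sites of 3 of the sorted factors, and NKX2.2, which separates pMN from p3, was not checked. At Olig2 the samples of pMN lay between 10.84 and 11.21 VST units on days 5 and 6, above the highest sample of p3, at 10.27, and that element is itself a member, chosen on these values. At Nkx6-1 pMN, p2 and p3 had medians of 11.18, 11.12 and 11.15, above that of p0-1, at 10.56. At Pax6 the median was 11.57 in pMN, 11.70 in p2, 11.81 in p0-1 and 10.93 in p3. At T, which encodes Brachyury, a factor of NMPs, the mean was 10.21 in NMPs and the highest pMN sample was 7.22. At Tbx6, also listed as a gene of NMPs, the mean was 9.63 in NMPs and the pMN samples were at 9.45 to 9.84. The Tbx6 element thus did not separate NMPs from pMN. Among 10 genes of newborn neurons with an element within 2000 bp of their start site, the median was highest in pMN at 4 and the pMN samples stood above all others at 0. The mean over these 10 elements was 9.49 to 9.83 VST units in pMN, 9.14 to 9.91 in p2, 9.20 to 9.49 in p3 and 8.97 to 9.51 in p0-1. Of these genes, 2 had an element of the promoter class, Elavl4 and Isl1, and the median was highest in pMN at both. At Isl1 it was so by little, at 9.962 in pMN against 9.960 in p3. The mean over these 2 was 10.06 to 10.43 in pMN, 9.87 to 10.175 in p3, 9.64 to 9.95 in p2 and 9.19 to 9.71 in p0-1. In this mean the pMN samples lay above those of p2 and p0-1 and overlapped with those of p3. That separation was present at Elavl4, with pMN at 10.15 to 10.76, p2 at most at 9.83 and p0-1 at most at 9.44. It was absent at Isl1, where pMN, at 9.81 to 10.135, overlapped with every type, such as p2 at 9.70 to 10.215. Of the 2 oligodendrocyte precursor genes on the list, Sox10 was at a median of 5.37 and Pdgfra at 6.31 in pMN, in both cases below the highest of the other types. Samples are bulk, so a smaller share of open cells and weaker opening in each cell cannot be told apart.

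By the rule, the members were highest in pMN on days 5 and 6, and the values that chose them are given as a description. The median over the members was 7.55 to 7.86 VST units in the 5 pMN samples of day 5 and 8.06 to 8.40 in the 4 of day 6. In p2 it was 6.68 to 7.07 on day 5 and 6.99 to 7.24 on day 6, in p3 6.20 to 6.57 and 6.36 to 6.76, and in p0-1 6.02 to 6.49 and 6.11 to 6.75. The pMN samples overlapped with none of the others, and p2 was the next highest on both days. At 1063 of the 1410 members p2 was the second-highest type, at 246 it was p3 and at 101 it was p0-1. The excess of pMN over the second-highest type had a median of 0.82 VST units, with 402 members at 1 or more and 16 at 2 or more. At 354 members the lowest of the 9 pMN samples lay above the highest sample of every other type, against 0.704% of all elements, and this too follows in part from the rule. The mirrored rule gave 807 elements for p0-1, 292 for p2 and 4271 for p3.

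**Figure D1:**
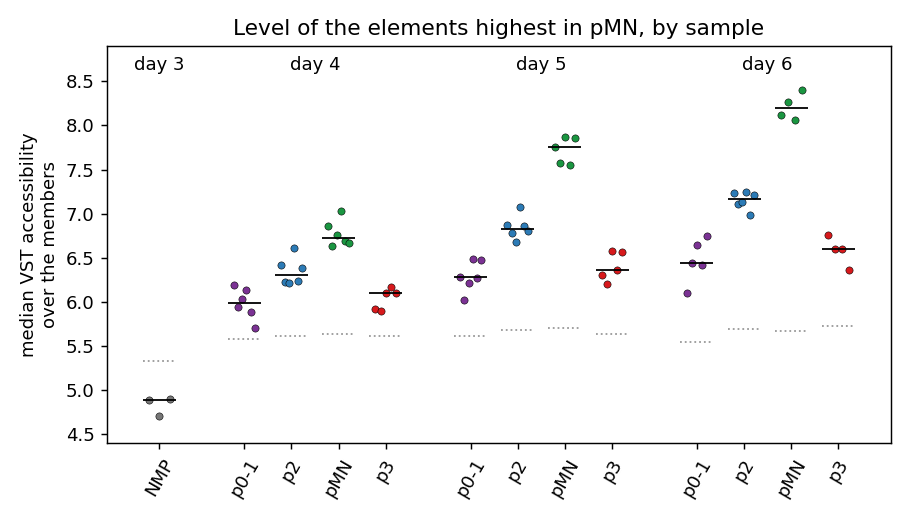
Median VST accessibility over the 1410 members in each sample (points) by cell type and day. Solid bars are group medians and dotted grey bars the group medians over all elements. The pMN samples run from 6.63 on day 4 to 8.40 on day 6, while NMP samples are between 4.71 and 4.90.

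At the threshold the members shade into their neighbours. The member with the smallest excess, at 0.60011 VST units, lay 3.3 kb upstream of Srebf2, and the next, at 0.60025, lay 42.3 kb upstream of Agpat4. Just outside were an element in an intron of Man1c1, at 0.59993, and one 4.4 kb upstream of Mir219a-2, at 0.59988.

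The members with the largest excess were distal elements, and most of them had low values outside pMN. One of them, with an excess of 2.75, lay at chr14:66502040-66502952, 132.8 kb upstream of Adra1a, an adrenergic receptor gene. Its normalised read count on days 5 and 6 had a lowest, median and highest value of 133, 246 and 338 in pMN and of 11.2, 23.9 and 44.9 in p2, and was at most 25.4 in p3 and 12.6 in p0-1. The lowest pMN sample was thus well above the highest of the other samples. A further 8 of the first 10 had an excess of 2.16 to 2.63. They were 26.3 kb upstream of Ccl1, 71.0 kb upstream of D230030E09Rik, 98.0 kb upstream of Fzd7, a Wnt receptor gene, and in introns of Hsd17b3, Sntb2, 6030407O03Rik, Bcas3 and Morrbid. The element in Morrbid was not low elsewhere, with means of 7.15 VST units in p2 and 7.05 in p3, and that in Hsd17b3 was at 6.68 and 6.55. None of the 10 was within 1 kb of a start site.

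Day 4, which the rule did not use, asks whether the members already stood apart when the domains were 1 day old. They did so on balance, but with small differences from p2. The median over the members was 6.63 to 7.03 VST units in pMN, 6.21 to 6.61 in p2, 5.90 to 6.17 in p3 and 5.71 to 6.19 in p0-1. The lowest pMN sample was just above the highest p2 sample, and p3 and p0-1 overlapped with each other. In pMN, 624 members had reached a mean of 7, or 44.3%, against 24.4% of all elements. At 1148 members pMN was the highest of the 4 types, as it was at 24.4% of all elements. The excess over the second-highest type had a median of 0.29 on day 4, against 0.78 on day 5 and 0.94 on day 6. The values of days 5 and 6 chose the members and those of day 4 did not. A smaller excess on day 4 can therefore follow from the rule alone, and these medians do not measure a rise over time. On day 4 the excess was at least 0.6 at 249 members, or 17.7%, against 0.887% of all elements.

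An element was called when its adjusted p from limma's moderated test was under 0.01 and its mean normalised count differed by more than 2-fold. Against p2, 77 of the 1410 members were higher in pMN, which is 5.46% of them, against 0.305% of all elements, and 0 were lower, against 0.0502%. Without replicate 1 of pMN at 500 nM, 42 members and 163 of all elements were higher. When the fit was kept to 100 nM SAG, the one concentration both types share, with 3 samples each, 7 members and 9 of all elements were higher. With the replicate number as a block, 112 members were higher, against 0.648% of all elements, and 0 were lower, against 0.177%. The difference from p2 had a median of 0.36 over the members and of 0.002 over all elements. It was above 0 at 1276 members, or 90.5%, against 50.5% of all elements. At 244 members the lowest of the 6 pMN samples was above the highest of the 6 p2 samples, against 1.45% of all elements. Against p0-1, 490 members were higher, against 5.16% of all elements, and 0 were lower, against 0.776%, with a median difference of 0.66. Against p3, 482 were higher, against 8.53%, and 0 were lower, against 3.99%, with a median difference of 0.63. The pMN and p0-1 samples had no SAG concentration in common, so type and SAG cannot be told apart there. The 3 comparisons share the pMN samples, and 56 members were higher in all of them, or 3.97%, against 0.164% of all elements, while 726 were called in none, or 51.5%, against 83.9%.

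**Figure D2:**
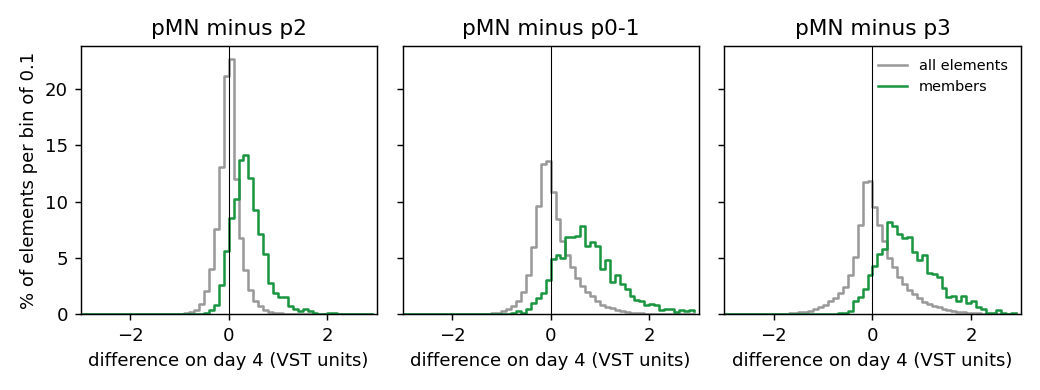
Differences in VST on day 4 between pMN and p2, p0-1 and p3, as the percentage of elements in bins of 0.1, for members (green) and all elements (grey); differences beyond 3 units are placed in the last bin. The members' curve is shifted to the right of 0 in each panel, with medians of 0.36, 0.66 and 0.63.

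The members with the largest difference from p2 on day 4 were intronic. One at chr12:69895020-69895401, in an intron of Atl1, was higher by 2.10 ± 0.18 VST units (SE), with an adjusted p of 1.13e-05. Another at chr10:21887129-21888073, in intron 1 of Sgk1, a kinase gene, was higher by 2.10 ± 0.15, and one in intron 2 of Esrrg, which encodes an orphan nuclear receptor, by 2.02 ± 0.16. The Sgk1 element was also among the 3 members with the largest difference from p0-1, at 3.06 ± 0.14, with those in intron 1 of Nxph1, which encodes a secreted neurexin ligand, at 3.51 ± 0.19, and in intron 4 of 1700024I08Rik, at 3.25 ± 0.19. Against p3 the largest differences were 3.15 ± 0.16 near Mir5099, 2.94 ± 0.18 near Gm21269 and 2.82 ± 0.14 in intron 1 of Gm12718. The Adra1a element, with medians of 14.1 counts in pMN and 6.72 in p2, was not called against any of the 3 types.

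Between NMPs and pMN of day 4 most members rose. They numbered 1015, against 35.1% of all elements, and 63 fell, against 22.9%. The median change was 1.69 VST units over the members and 0.12 over all elements. The largest rises were at the Olig2 element 32.5 kb upstream, by 6.59 ± 0.15, at one 106.1 kb upstream of Atp2b1, a calcium pump gene, by 5.69 ± 0.15, and at one 92.4 kb downstream of Gm815, by 5.56 ± 0.14. In NMPs 182 members had a mean of at least 7, or 12.9%, against 26.8% of all elements, and the median over the members was 4.83.

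The 63 members that fell followed another course. Their median was 8.19 VST units in NMPs, 6.25 in pMN of day 4, 7.52 on day 5 and 8.01 on day 6, so that they were accessible in NMPs, lower on day 4 and high again in the later pMN samples. On day 6 the pMN mean was above that of day 4 at 59 of them and above that of NMPs at 35, and the later values are those the rule selected. The largest falls were near C130021I20Rik, at -3.94 ± 0.22, in an intron of Camkk1, at -3.79 ± 0.18, and in an intron of Hadhb, at -3.47 ± 0.20. An element 6.7 kb upstream of Mnx1, which encodes a homeodomain factor of postmitotic motor neurons, was of this kind. Its normalised read counts were 290, 385 and 430 in the 3 NMP samples, and had a lowest, median and highest value of 62.9, 74.4 and 86.0 in the 6 pMN samples of day 4. On day 5 they were 134, 234, 284, 316 and 331, and on day 6 they were 284, 318, 333 and 374. The fall to day 4 was -2.11 ± 0.15 (adjusted p 2.41e-10 in limma). On day 4 its counts in p2, at 55.9 to 91.3, covered those in pMN.

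The values of pMN on days 5 and 6 chose the members, so the comparison of these days, although the rule took them together, is given as a description and supports nothing. Higher values on day 6 were called at 213 members, against 2.92% of all elements, and lower ones at 7, against 1.81%. The median change was 0.42 over the members and 0.001 over all elements. The largest differences were 40.2 kb upstream of Septin7, higher on day 6 by 2.48 ± 0.17, 938.0 kb upstream of Nr2f1, an orphan nuclear receptor gene, by 2.38 ± 0.24, and in intron 7 of Dcc, a netrin receptor gene, by 2.34 ± 0.28. The most negative ones were near Pygb, at -1.68 ± 0.29, in an intron of Them7, at -1.21 ± 0.23, and near 1700061F12Rik, at -1.04 ± 0.21. The pMN minus p2 difference, which the rule also used, had changed between the days at 0 members by limma, against 0% of all elements, and by voom on the recovered reads at 0. At an unadjusted p under 0.05 there were 189 members and 5544 of all elements, a count from the samples that chose the members and no result about them.

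No effect of the concentration of SAG on the members was detected. In pMN, 0 members differed between 100 and 500 nM over the 3 days, against 0% of all elements, by limma on VST and by voom alike, and 66, or 4.68%, had an unadjusted p under 0.05, against 3.94% of all elements. The median difference over the members was 0.008 VST units. On day 6 the 2 samples at 100 nM were at 8.12 and 8.27 and the 2 at 500 nM at 8.06 and 8.40, so the spread within a concentration was larger than the gap between them.

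The largest group of neighbouring members lay around Olig2 and Olig1, the bHLH genes of the pMN domain, the first of which was used to sort the cells. Linking members whose centers were at most 100000 bp apart put 18 of them in one stretch of chr16:91139583-91337806, which holds 31 elements. Their nearest genes were Olig2 for 8, Olig1 for 7, Ifnar2 for 2 and 4932438H23Rik for 1. Their means in pMN ran from 7.24 to 12.02 VST units, and their excess from 0.61 to 2.13. On day 4 pMN was the highest type at all 18, against 81.4% of the members and 24.4% of all elements. The calls were 2 against p2, 9 against p0-1 and 9 against p3. The shares called higher were 5.46%, 34.8% and 34.2% of the members, and 0.305%, 5.16% and 8.53% of all elements, in that order. The 2 called against p2 were the elements 9.2 kb downstream of Olig2 and 28.1 kb downstream of Olig1, whose central sequences are printed above.

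**Figure D3:**
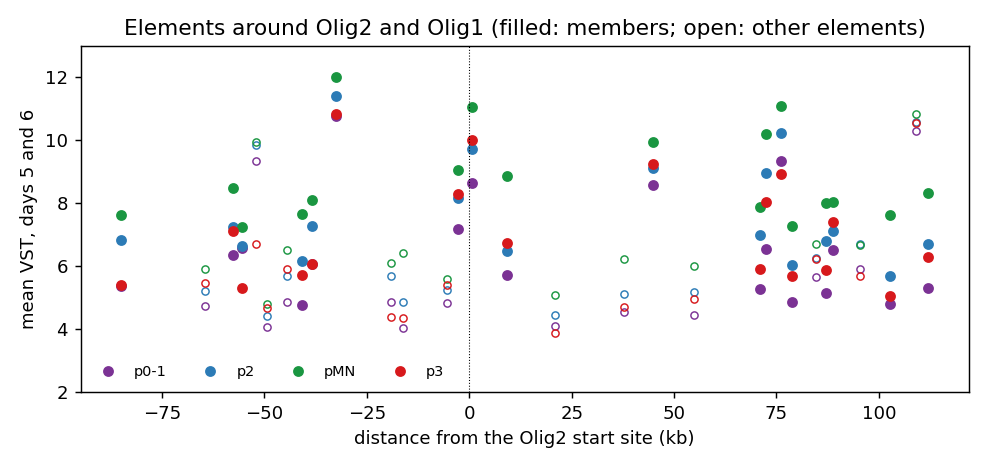
Mean VST accessibility on days 5 and 6 of each element in the stretch around Olig2 and Olig1, against its distance from the Olig2 start site in kb, by cell type. Filled points are the 18 members and open points the other 13 elements; pMN is at 7.24 to 12.02 at the members.

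These elements differed in timing. The element 9.2 kb downstream of Olig2 had counts of 124, 151 and 168 in NMPs, and of 147 to 363 in pMN of day 4, with a median of 263. On day 4 the counts were 54.6 to 116 in p2 and 64.5, 73.5, 80.2, 81.0 and 105 in p3, so pMN overlapped with neither. The difference from p2 was 1.58 ± 0.20 VST units (adjusted p 4.15e-04 in limma). The element 28.1 kb downstream of Olig1 was at 19.4, 21.5 and 25.6 counts in NMPs and at 591 to 810 in pMN of day 4, against 207 to 399 in p2 and 62.6 to 176 in p3. It was 1.19 ± 0.14 higher in pMN than in p2, 2.42 ± 0.18 higher than in p3, and 30.6-fold higher in mean count than in NMPs. The element 40.9 kb upstream of Olig2, by contrast, was at 7.31 to 16.1 counts in pMN of day 4 and at 5.06 to 11.5 in p2, and was not called against any of the other NP types. On day 6 it was at 227 to 390 in pMN and at 52.2 to 94.8 in p2. The highest member in the stretch, 32.5 kb upstream of Olig2, had a mean of 12.02 in pMN but also of 10.78 in p0-1, 11.41 in p2 and 10.83 in p3, so it was open in every NP type, with an excess of 0.61 in pMN.

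Of the 1410 members, 395 had another within 100000 bp, in 160 groups, and 1015 stood alone. After the Olig genes, 2 groups of 7 followed. One, at chr11:35495998-35594083, lay in introns 4 to 10 of Slit3, an axon guidance ligand gene that hosts Mir218-2, a microRNA gene expressed in motor neurons, and all 7 were annotated to that microRNA. Their excess was 0.73 to 1.38, and on day 4 pMN was the highest type at 6 of the 7. The calls on that day were 1 against p2, 4 against p0-1 and 2 against p3. The shares over all elements are those given for the Olig genes. The member called against p2 was in intron 10, at chr11:35593125-35594083, where pMN was higher by 1.15 ± 0.15 (adjusted p 6.05e-04 in limma). A further member in intron 4 of Slit3 was annotated to Slit3 itself. The other group, at chr1:62636120-62908936, lay in and beyond Nrp2, a receptor of semaphorins, with an excess of 0.61 to 1.14. On day 4 pMN was the highest type at all 7 of its members. The calls there were 0 against p2, 1 against p0-1 and 4 against p3. By nearest gene, Olig2 had 8 members among its 16 elements, Olig1 7 of 11, Mir218-2 7 of 49 and Cdh11, a cadherin gene, 6 of 30. E030025P04Rik, Efnb2, Fut8, Nrp2, Prep and Wwc1 followed with 4 each. The members had 1161 nearest genes in all, and 980 of them had 1 member.

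Among genes grouped by role, those of pMN and motor neurons held the most members. Of the 258 elements nearest to the 23 genes on that list, 24 were members, or 9.30%, against 1.26% of all elements, and 15 of the 24 were at Olig1 and Olig2. The others were at Lhx3 and Lhx4, LIM homeodomain genes of motor neuron and interneuron specification, with 2 each, and at Neurod4, Mnx1, Ebf1, Foxp1 and Slit3 with 1 each. Only 9 of the 23 genes thus had a member, with 0 of 24 elements at Isl1, 0 of 22 at Slit2 and 0 of 10 at Ebf3. The median excess over the 258 elements was -0.08 VST units, against -0.24 over all elements, so most of them were not highest in pMN. On the other lists the share was between 0% and 1.98%, against 1.26% of all elements. There were 2 of 125 for p2, both at Lhx4, 0 of 113 for p0-1, and 2 of 101 for p3 and floor plate, with 1 of them at Foxa1. There was 1 of 74 for factors shared by the ventral domains, at Sp8. Hedgehog pathway genes held 2 of 117, at Gli2 and Hhip, Notch pathway genes 0 of 113, oligodendrocyte lineage genes 1 of 54, at Nfia, and retinoid genes 1 of 78. The lists were chosen with earlier results of these data known, and the members by their values, so these counts are descriptions.

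The members near motor neuron genes differed in how they behaved on day 4. The element 32.8 kb downstream of Lhx3 had counts of 21.9 to 65.4 in pMN, 15.0 to 34.7 in p2 and 3.79, 8.10, 9.0, 11.8 and 14.1 in p3. The pMN samples were above those of p3 and overlapped with those of p2. It was higher than in p3 by 1.30 ± 0.23 (adjusted p 2.80e-04 in limma) and was not called against p2, at 0.48 ± 0.21. On day 6 its counts were 672, 801, 1099 and 1177 in pMN and 281 to 536 in p2. The neighbouring member, 29.0 kb downstream, had a median of 9.91 counts in pMN of day 4 and was not called against any type. The 2 members 5.2 and 9.2 kb upstream of Lhx4 were not called against p2 on day 4, at -0.08 ± 0.13 and 0.12 ± 0.12 VST units, and reached excesses of 0.97 and 1.05 on days 5 and 6. The nearer of them was called against p3 on day 4, at 0.83 ± 0.14 (adjusted p 2.41e-04 in limma). The member near Neurod4, a proneural bHLH gene, differed from p2 by 0.00 ± 0.17. Members in introns of Ebf1, a factor of differentiating neurons, and Foxp1, a determinant of motor columns, differed from p2 by 0.45 ± 0.12 and 0.33 ± 0.22, and neither was called. The Foxp1 member was called against p3, at 1.11 ± 0.19.

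**Figure D4:**
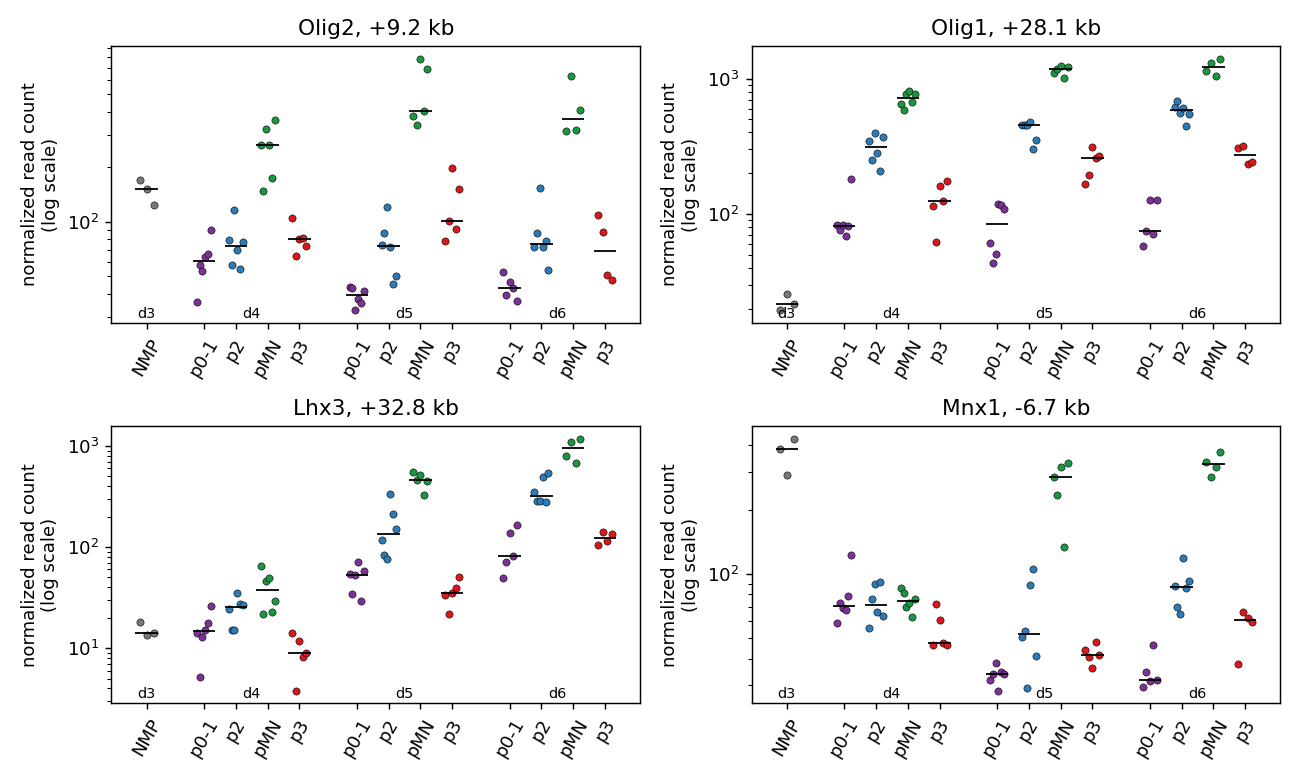
Normalised read counts (log scale) of the members 9.2 kb downstream of Olig2, 28.1 kb downstream of Olig1, 32.8 kb downstream of Lhx3 and 6.7 kb upstream of Mnx1 in every sample, by cell type and day (d3 to d6), with bars at group medians. On day 4 the pMN samples at Olig1 (591 to 810) are above those of p2, and those at Mnx1 (62.9 to 86.0) are among them.

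Members near genes of other roles showed both patterns. The one 16.4 kb upstream of Sp8, a zinc finger gene, was higher than in p0-1 by 1.95 ± 0.20 and than in p3 by 2.06 ± 0.20, and did not pass against p2, at 0.78 ± 0.21. The one in intron 2 of Nfia, a factor of gliogenesis, was called against p0-1 and p3, at 1.43 ± 0.25 and 1.24 ± 0.20. At the member in intron 1 of Gli2, a transcriptional effector of Hedgehog signalling, day 4 counts were 949 to 1243 in pMN and 719 to 876 in p2, without overlap. The difference was 0.45 ± 0.07 with an adjusted p of 0.00331 in limma, but at 1.37-fold it did not reach the 2-fold threshold. The member nearest to Hhip, a Hedgehog antagonist, differed from p2 by 0.02 ± 0.16. The member nearest to Foxa1, from the list for p3 and floor plate, was not called against p2, at 0.20 ± 0.18, and was called against p3, at 0.75 ± 0.18.

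The members were distal. In the deposited annotation 679 were intergenic and 679 intronic, or 48.2% each, against 44.2% and 41.1% of all elements, and 14, or 0.993%, were at promoters, against 7.41%. The median distance to a start site was 51703 bp, against 32610 bp for all elements, and 21 members lay within 1 kb of one. Members had a median width of 1072 bp, against 883 bp, and a median GC content of 47.3%, against 48.1%. The elements highest in p0-1, p2 and p3 were alike in this, with median distances of 59397, 58706 and 43489 bp. Chromosome 11 held 153 members, or 10.9%, against 6.90% of all elements.

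Motifs were counted in the central 300 bases, on both strands, as exact matches of letters, which are not evidence that a factor binds. The E-box form CAGATG was in 541 members, or 38.4%, against 25.7% of all elements and 18.8% of the elements with a pMN mean of at least 7 that were not members. In the elements highest in p2, p3 and p0-1 it was in 49.3%, 23.1% and 19.8%. Its share was above that of all elements in each of 3 equal classes of GC content, at 31.3% against 25.8%, 41.1% against 29.3% and 43.7% against 21.9% from the lowest to the highest. The 3 forms are also matches to the general form CANNTG, which was in 86.7% of members and 79.8% of all elements. CATATG was in 7.59% of members, 5.22% of all elements and 16.1% of those highest in p2, and CAGCTG in 26.7% and 21.1% of members and all elements. The SOX motif ACAANG was in 68.2% of members, 55.7% of all elements and 64.2%, 61.2% and 60.3% of those highest in p0-1, p3 and p2, and the GLI motif GACCACC in 5.32%, or 75 members, against 3.11% of all elements and 2.36%, 1.71% and 1.98% of those highest in p3, p2 and p0-1. Both were above the share of all elements in each class of GC content.

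The remaining motifs differed less from all elements, or were less frequent in the members. The FOX motif TGTTTAC was in 3.12% of members, 4.96% of all elements and 10.6% of those highest in p3, and the RFX motif GTTGCCA in 3.55%, 4.57% and 8.29%. The TEAD motif GGAATG was in 18.1% of members, 20.3% of all elements and 30.1% of those highest in p0-1. The ONECUT motif ATCGAT was in 9 members, or 0.638%, against 0.892% of all elements and 3.77% of the elements highest in p2. The PAX6 motif TTCACGC was in 7 members, or 0.496%, against 1.00% of all elements. In the elements with a pMN mean of at least 7 that were not members, FOX was at 3.10%, RFX at 4.05% and TEAD at 14.7%. ONECUT was at 0.998% and PAX6 at 1.57% there. Against those elements FOX was thus not less frequent in the members, and TEAD was more frequent. The homeodomain motif TAATTA was in 8.94% and 7.85% of members and all elements, the NKX2 motif CACTTNA in 15.1% and 15.0%, the POU motif ATGCAAAT in 2.20% and 2.30%, the HOX-PBX motif TGATTNAT in 6.60% and 5.99%, and the AP-1 motif TGACTCA in 5.04% and 6.15%. Slightly higher shares were found for the MEIS motif TGACAG, at 27.4% and 23.2%, the nuclear receptor motif AGGTCA, at 23.8% and 19.8%, and the NFI motif TTGGCA, at 16.1% and 14.9%.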

How the data were processed

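The series holds 67 CaTS-ATAC samples, from 17 conditions with 3 replicates and 8 with 2. The authors ran the nf-core ATAC-seq pipeline, aligned reads to mm10, called peaks with MACS, merged those shared by at least 2 replicates, counted the reads of each, and deposited the DESeq2 VST of the counts on a log2 scale. HOMER annotations were used as deposited. The VST was inverted to normalised counts and reads, of which 100% below 1000 reads came out whole within 1e-06. Differences were tested, two-sided, on VST with limma 3.58.1 (trend) in R 4.3.3 over all 111638 elements without a filter, using the samples of each comparison. P values were adjusted by Benjamini-Hochberg, and a call needed an adjusted p under 0.01 and more than 2-fold in mean normalised counts (pseudocount 1), or a change of over 1 VST unit for the change between days. Summaries used Python 3.11.15. On simulated day 4 pMN and p2 counts over 111638 elements, 88 of 100 elements changed by 2.5-fold and 98 of 100 changed by 4-fold were called, with 1 false call. The changed elements were drawn only from better covered ones, and the samples were simulated as independent. These rates therefore do not extend to members with few counts on day 4 or to samples that deviate together.

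The members and gene lists were chosen with earlier results of these data known. Named elements were the 10 with the largest excess, up to 2 per listed gene, up to 3 called in each direction per comparison, 4 at the threshold, and the genes with most members. The neuron and oligodendrocyte markers were read at any element within 2000 bp of the start site, a choice made after promoter-class elements were found for few of them. Of the 8 sequences that the rule selects 7 are printed, and some named elements are not reported here. Coordinates were read from GRCm38, in which 0 elements ended beyond a chromosome, and for 90.3% of 8223 promoter elements the gene had an end within 5000 bp. Replicates are independent differentiations; same-numbered samples deviated together, with a median correlation of 0.13 to 0.46 in the 7 comparisons (lowest pair -0.04), and for 15 samples title and description numbers differ.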

Additional observations from a re-analysis of the deposited data

Results flagged for a closer look

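Of 54 groups of 4 to 10 samples examined, in the median over the members and at the members near Olig2, Mnx1 and Lhx3 and the 2 with the largest excess, 1 held a sample far from the others, and chance alone gives about 1 in 20. At the element 6.7 kb upstream of Mnx1, replicate 2 of pMN at 500 nM on day 5 was at 7.20 VST units, while the nearest of the other 8 pMN samples of days 5 and 6 was at 7.95 and the highest at 8.60.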

How the results depend on the processing

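Keeping elements with a mean above 100 normalised counts left fewer members to test. It called 40 of 631 against p2, 235 of 584 against p0-1, 213 of 594 against p3 and 481 of 590 between NMPs and pMN. Such a filter can keep a member only through the group where it is high, so these counts support nothing. Of the 481, 443 rose and 38 fell, and on day 4 0 members were lower in pMN. Of all elements kept, 78, 988, 1794 and 6696 were higher in pMN and 5, 161, 565 and 8561 lower, in the same order. The number of all elements kept is not given here, so these cannot be read as shares. With an adjusted p under 0.05 and no fold threshold, 379, 859 and 890 members were called on day 4 against p2, p0-1 and p3. Between days 5 and 6, 726 were called. Of these, 0, 9 and 7 were lower in pMN on day 4, and 39 were lower on day 6 than on day 5. Over all 111638 elements, 2178, 12964, 19335 and 11816 were higher in these comparisons and 1003, 4997, 12669 and 8069 lower. A log2 fold change above 2 left 3, 93, 94 and 16 members, with 0 lower in each. Over all elements it left 9, 769, 1665 and 313 higher and 1, 17, 536 and 83 lower. At 100 nM SAG alone 7 members were called against p2. Leaving out each sample in turn gave 42 to 104 against p2, 414 to 528 against p0-1, 436 to 508 against p3, 1039 to 1090 from NMPs, 193 to 244 between days and 0 in the remaining comparisons. With the replicate number as a block, 112 were called against p2, 518 against p0-1, 500 against p3 (495 with the numbers of the descriptions), 1084 from NMPs and 231 between days (229), and 0 for SAG and for the change of the difference, so the block moved no count of members by over 1.5 times. Over all elements the block, with the numbers of the titles, took the calls against p2 from 341 to 723 higher and from 56 to 198 lower. Those against p0-1 went from 5757 to 6706 higher and from 866 to 1166 lower. Those against p3 went from 9527 to 10239 and from 4454 to 4872. Those from NMPs went from 39165 to 39649 and from 25570 to 25621. Between days the calls went from 3257 to 3916 higher on day 6 and from 2021 to 3055 lower. The rule gave 768 members at an excess of 0.8, 3626 without a minimum level and 2233 on day 6 alone, of which 1289 are among the 1410, and 1183 to 1649 without each sample. Centring within GC bins turned the NMP to pMN difference near Ebf1 from 0.00 to -1.09 VST units, and the share of higher values among all called elements from 86.9% to 73.2% against p0-1 and from 68.1% to 58.1% against p3, while the called members were higher in 99.5% and 100%. By construction this alternative takes away the median change of each bin. Depth limits elements at a few counts on day 4, such as the second Lhx3 member, and SAG differs between the groups compared with p2, p0-1 and NMPs.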
